A study of Homo sapiens with 9 samples.

Results

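Interferon-stimulated genes are the genes that cells switch on when a type I or type III interferon binds its receptor. A set of 52 of them was followed across 3 lines of MDA-MB-231, a triple-negative human breast cancer cell line. Members were chosen by name, as well-known interferon-stimulated genes together with their sensors, transcription factors and receptor chains. The choice was made with earlier results of these data known. Each was read from the probe set with the highest mean over the 9 arrays, and 51 of the 52 were measured, among 11963 genes with a probe set of their own. The transcription factor STAT2 had no probe set named for it in the annotation used here.

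All 3 lines were stably transduced with a lentiviral vector that expresses a short hairpin RNA, a pLKO vector for the Coco hairpins. The shco4 line carried hairpin number 4 against Coco, the shco2 line carried hairpin number 2 against Coco, and the scramble line carried a control hairpin. Coco (gene symbol DAND5) is a secreted antagonist of BMP, Nodal and Wnt ligands. Each line was measured on 3 arrays labelled as biological replicates, from cells in DMEM with serum, and no interferon treatment is named for any group. The labels do not say whether a line was a pool or a single clone, or whether the replicates were separate cultures. P-values therefore measure the spread between these arrays of 1 line per hairpin. Untransduced cells were not analysed here, and the level of DAND5 itself was not analysed here because no probe set is named for it.

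In the classical pathway, viral RNA in the cytoplasm is detected by RIG-I and MDA5 (genes RIGI and IFIH1), which signal through MAVS to IRF3 and IRF7 and so to interferon genes. Secreted interferon binds IFNAR1 and IFNAR2, whose kinases JAK1 and TYK2 activate a complex of STAT proteins and IRF9. That complex binds the interferon-stimulated response element in the promoters of its target genes. Interferon gamma acts through another receptor and the gamma-activated site, and IRF1 is among its best-known targets. The products of these genes block viral entry, translation and RNA replication, and several have a basal level in cells that were given no interferon.

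Values are probe set intensities as deposited, each array already scaled to 1 common mean. The trimmed mean was 500.1 on every array and the array medians lay between 122.5 and 129.6. Differences are on the log2 scale after values under 16 were set to 16, with the standard error (SE) of the fit, and a gene was called where the limma p, adjusted by the Benjamini-Hochberg method over 22215 probe sets, was under 0.05. Where a call is said to be lost when an array was dropped, each of the 9 arrays had been left out of the fit in turn. Of the 51 members, 50 reached an intensity of 64 on at least 3 arrays, and IFI44L was below 64 on all 9. Intensities of different probe sets are not comparable as levels. The markers fixed as high in MDA-MB-231 (VIM, CD44, AXL, CAV1, FN1 and MSN) were all above 64 on every array, with summed intensities of 38030 to 40100 in shco4, 27730 to 29230 in shco2 and 43000 to 45560 in scramble. Of 7 markers listed as low in this line, the oestrogen receptor gene ESR1 and the progesterone receptor gene PGR were below 64 on all arrays and the other 5 were not. These were the luminal and epithelial genes KRT19 (2107 to 5848 over the 9 arrays), EPCAM (219.9 to 609.9), GATA3 (437 to 683) and CDH1 (28.0 to 243), and ERBB2 (515 to 803). The sum over the 7 was 5952 to 6499 in shco4, 3738 to 3811 in shco2 and 6218 to 7907 in scramble. Of 8 immune cell markers 6 were measured and 5 of these were below 64 on every array, the exception being CD14, and their summed intensity was 225.8 to 396.1 in shco4, 153.8 to 204.7 in shco2 and 143.5 to 204.6 in scramble. The 3′ to 5′ signal ratio of ACTB, a sign of RNA quality, was 1.12 to 1.14 in shco4, 1.08 to 1.11 in shco2 and 1.07 to 1.10 in scramble. The part of these marker and ratio differences in the results that follow was not tested.

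All 4 IFIT genes, ISG15, its ligase gene HERC5 and the related gene HERC6 fell with shco4, while IRF7, MX1, IFITM2 and IFITM3 rose. The calls with shco2 included lower IFNAR1, IRF1, IFITM1 and PML and higher RSAD2 and RIGI. With shco4, 15 of 51 members (29.4%) fell and 11 (21.6%) rose relative to scramble, while 25 did not pass the test. All genes gave 11.6% lower and 10.7% higher in the same comparison. With shco2, 11 of 51 members (21.6%) fell and 6 (11.8%) rose relative to scramble, against 11% and 13.3% of all genes. Between the hairpins, 17 of 51 (33.3%) were lower and 18 (35.3%) higher in shco4 than in shco2, against 19.4% and 16.1% of all genes. Since brighter genes are called more often, the shares were also taken over the 7840 genes at or above 64 on at least 3 arrays, a limit added after the data were seen. There, 17.1% were lower and 15.5% higher with shco4, 16.1% were lower and 19.7% higher with shco2, and 28.4% were lower and 23% higher in shco4 than in shco2. The members' share of higher calls with shco2 thus lay below both backgrounds. Their shares of lower and of higher calls with shco4, of lower calls with shco2, and of both directions between the hairpins lay above both. Because the members were chosen with earlier results of these data known, these shares describe the set and are no independent test of it. In these bulk samples, fewer cells that express a gene and less RNA per cell cannot be told apart.

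**Figure D1:**
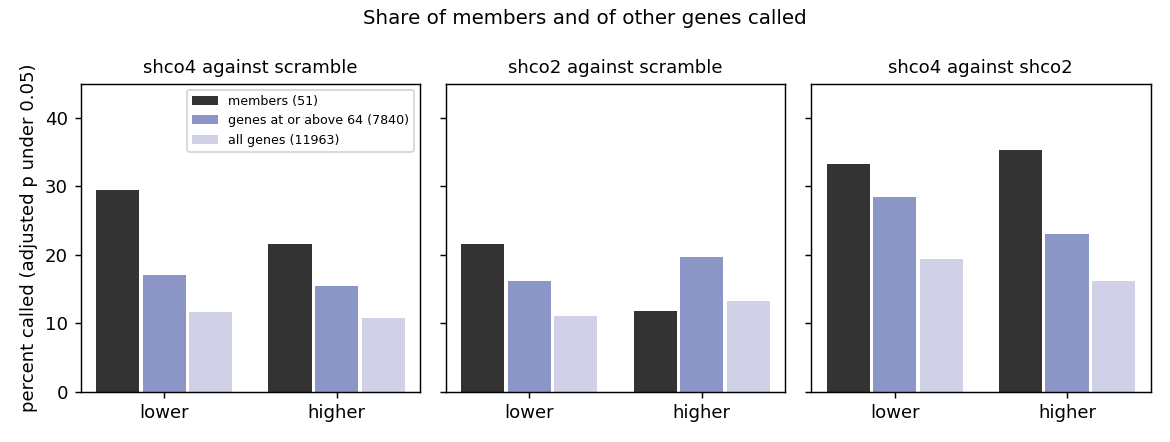
Percent of genes called lower or higher (adjusted p under 0.05) in each of the 3 comparisons, for the 51 members, for 7840 genes at or above an intensity of 64 on at least 3 arrays, and for all 11963 genes. With shco4 29.4% of members were lower than in scramble, against 11.6% of all genes, and with shco2 11.8% of members were higher, against 13.3% of all genes.

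The median difference over the members was near that of all genes and the spread was wider. With shco4 the members' median was -0.07 on the log2 scale, with quartiles at -0.73 and 0.33, where all genes had a median of 0 and quartiles at -0.23 and 0.25. With shco2 the median was -0.09 and the quartiles -0.44 and 0.30, where all genes had quartiles at -0.21 and 0.28. Between the hairpins the members' quartiles were -0.95 and 0.78, against -0.32 and 0.31 for all genes. Both hairpins were set against the same 3 scramble arrays. By pattern, 10 members fell with shco4 alone, 8 rose with shco4 alone, 7 fell with shco2 alone and 2 rose with shco2 alone, "alone" meaning only that the other comparison did not pass the test. These were 19.6%, 15.7%, 13.7% and 3.92% of the members, in that order, against 6.63%, 5.91%, 6.58% and 8.02% of all genes. IFIT5 and PARP12 fell with both hairpins (3.92% of members, 2.57% of all genes), and IFI6 rose with both (1.96% of members, 2.98% of all genes). RIGI, ISG15 and RSAD2 fell with shco4 and rose with shco2, and IRF1 and IFITM2 did the opposite. The remaining 16 members (31.4%, against 63.2% of all genes) were called in neither comparison with scramble. Of these, 12 were called in none of the 3 comparisons, a count given without a background. The pattern shares were set against all genes only, and brighter genes are called more often.

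**Figure D2:**
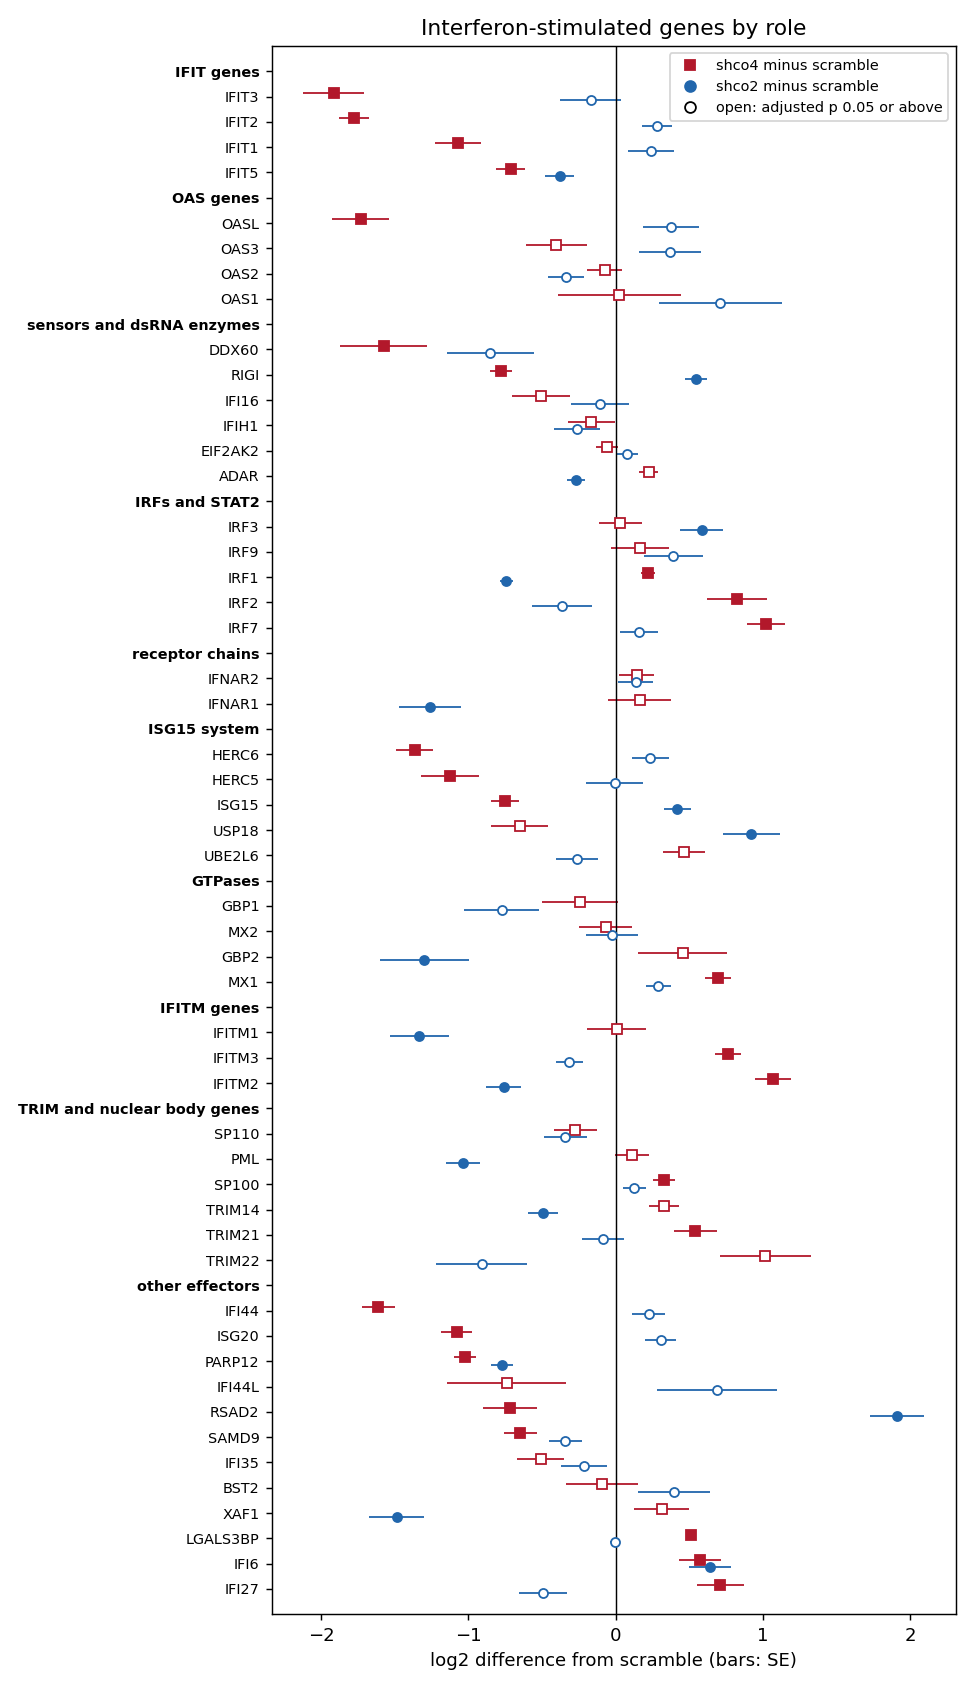
Log2 difference from scramble for each of the 51 measured members, in role order, with bars for the SE of the fit; squares are shco4 minus scramble, circles are shco2 minus scramble, and filled symbols have an adjusted p under 0.05. The 4 IFIT genes lie to the left with shco4, IFIT3 lowest at -1.91, while RSAD2 lies farthest to the right with shco2 at 1.91.

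Promoters of 6 members are printed because they stand for the patterns above: IFIT1 fell with shco4, ISG15 and RSAD2 were called in opposite directions, IFITM3 rose with shco4, IFI6 rose with both hairpins and IRF1 fell with shco2. Each is the 250 bases before a RefSeq start of the gene in GRCh38.p14, 5′ to 3′ on the gene's strand. RSAD2 has 2 starts in the table, and the printed window is that of the downstream start, chosen because it holds the core, which the window of the upstream start does not. Capitals mark the core of the interferon-stimulated response element, GAAANNGAAA on either strand (TTTCNNTTTC when read in reverse), in the first 5 and the core of the gamma-activated site, TTCNNNGAA, in IRF1. The windows lie at chr10:89392373-89392622 (plus strand) for IFIT1, chr1:1013247-1013496 (plus) for ISG15, chr2:6877527-6877776 (plus) for RSAD2, chr11:320861-321110 (minus) for IFITM3, chr1:27672193-27672442 (minus) for IFI6 and chr5:132490774-132491023 (minus) for IRF1.
IFIT1: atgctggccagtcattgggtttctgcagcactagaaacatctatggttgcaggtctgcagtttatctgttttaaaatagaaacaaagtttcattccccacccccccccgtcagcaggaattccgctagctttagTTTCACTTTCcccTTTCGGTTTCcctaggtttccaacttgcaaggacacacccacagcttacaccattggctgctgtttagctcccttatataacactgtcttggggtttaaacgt
ISG15: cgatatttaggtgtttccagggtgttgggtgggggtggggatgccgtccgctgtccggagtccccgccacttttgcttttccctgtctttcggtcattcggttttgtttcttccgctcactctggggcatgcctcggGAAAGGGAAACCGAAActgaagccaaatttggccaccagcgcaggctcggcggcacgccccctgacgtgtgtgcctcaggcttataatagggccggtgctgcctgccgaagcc
RSAD2: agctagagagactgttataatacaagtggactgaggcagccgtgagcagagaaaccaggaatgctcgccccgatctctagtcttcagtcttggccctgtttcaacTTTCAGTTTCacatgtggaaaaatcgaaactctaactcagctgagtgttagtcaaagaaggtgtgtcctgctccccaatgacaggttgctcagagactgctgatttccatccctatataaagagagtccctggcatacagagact
IFITM3: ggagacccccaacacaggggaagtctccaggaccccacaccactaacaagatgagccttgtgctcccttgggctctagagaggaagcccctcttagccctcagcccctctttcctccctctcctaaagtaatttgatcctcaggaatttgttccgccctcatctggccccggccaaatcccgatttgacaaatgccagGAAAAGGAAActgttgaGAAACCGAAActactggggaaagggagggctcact
IFI6: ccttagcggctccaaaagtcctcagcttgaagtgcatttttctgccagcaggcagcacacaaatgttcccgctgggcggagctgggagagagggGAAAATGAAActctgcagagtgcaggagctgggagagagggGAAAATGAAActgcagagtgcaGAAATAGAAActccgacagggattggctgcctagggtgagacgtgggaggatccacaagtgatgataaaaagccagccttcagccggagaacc
IRF1: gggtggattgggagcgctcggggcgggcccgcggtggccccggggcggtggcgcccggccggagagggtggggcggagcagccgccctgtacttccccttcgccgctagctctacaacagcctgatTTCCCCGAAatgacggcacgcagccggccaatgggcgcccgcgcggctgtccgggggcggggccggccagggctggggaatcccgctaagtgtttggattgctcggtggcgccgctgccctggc
The response element core was found in both a gene that fell with shco4 (IFIT1) and a gene that rose (IFITM3).

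RefSeq promoter windows of 250 bases before to 50 after the start were at hand for 38 of the 51 members. The 13 without a window were IFIT2, OAS2, OASL, IRF2, IRF3, IRF7, IFNAR2, USP18, MX2, GBP2, IFITM2, TRIM22 and PML. The response element core lay in the windows of 25 of these 38 (65.8%), and in those of 1195 of 27305 genes in the table (4.38%). By call, it was present in 11 of 13 members that fell with shco4 (84.6%), in 6 of 8 that rose (75%) and in 8 of 17 that did not pass the test (47.1%). By shco2 call the order differed: 4 of 8 that fell (50%), 3 of 4 that rose (75%) and 18 of 26 that did not pass (69.2%). The gamma-activated site core lay in the windows of 10 of 38 members (26.3%) and of 2560 of 27305 genes (9.38%). It was present in 1 of 13 members that fell with shco4, the helicase gene DDX60, in 3 of 8 that rose (37.5%), IRF1, MX1 and IFI27, and in 6 of 17 that did not pass the test (35.3%). By shco2 call it was present in 2 of 8 that fell (25%), 0 of 4 that rose and 8 of 26 that did not pass (30.8%). Both motifs overlapped in 5 of 52 member windows and in 22 of 35116 windows in all. A match describes letters in a window, and binding was not measured.

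The IFIT genes encode proteins with tetratricopeptide repeats, and IFIT1 binds viral RNA that lacks the cap methylation of cellular mRNA. All 4 measured members fell with shco4, by 0.71 to 1.91 on the log2 scale. IFIT2 had intensities of 581, 632 and 695 in shco4, 2671, 2617 and 2648 in shco2 and 2408, 2260.3 and 1894 in scramble. Every shco4 array was far below every other array, and the shco2 arrays lay just above those of scramble. The difference was -1.78 ± 0.10 with shco4, a 3.43-fold lower level (adjusted p = 0.000299), and 0.28 with shco2 (adjusted p = 0.105). IFIT3, which binds and stabilises IFIT1, had 877, 976 and 1543 in shco4, 3419, 3676 and 3963 in shco2 and 4361, 3839 and 4231 in scramble. The shco4 range again stood apart from both others, while shco2 and scramble overlapped, and the difference with shco4 was -1.91 ± 0.21 (adjusted p = 0.00205). IFIT1, whose promoter is printed above, had 1782, 1739 and 2332 in shco4, 4134, 4761 and 5573 in shco2 and 3897, 3782 and 4512 in scramble. It was 2.10-fold lower with shco4 than with scramble (log2 difference -1.07 ± 0.16, adjusted p = 0.00572), and with shco2 it did not pass the test (adjusted p = 0.386).

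IFIT5, which binds a wider range of RNAs, was the IFIT gene that fell with both hairpins. Its intensities were 401, 522 and 495 in shco4, 609, 575 and 591 in shco2 and 744, 814 and 752 in scramble, so the 3 groups did not overlap. The difference was -0.71 ± 0.10 with shco4 (adjusted p = 0.00463) and -0.38 ± 0.10 with shco2 (adjusted p = 0.0385). The shco2 call was lost when any of 7 arrays was dropped, at an adjusted p of up to 0.115 for scramble replicate 2. A second IFIT5 probe set gave -0.12 with shco4 (adjusted p = 0.572) and -0.40 with shco2 (adjusted p = 0.0489), so the shco4 call rests on the brighter probe set. By the brightest probe sets, all 4 IFIT genes were lower in shco4 than in shco2 as well, with a log2 difference of -0.33 for IFIT5 (adjusted p = 0.0436, lost when any of 7 arrays was dropped, at an adjusted p of up to 0.121 for shco2 replicate 1) and of -1.31 to -2.06 for the others. The second IFIT5 probe set lay the other way between the hairpins (0.28, adjusted p = 0.109), with every shco4 array above every shco2 array.

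**Figure D3:**
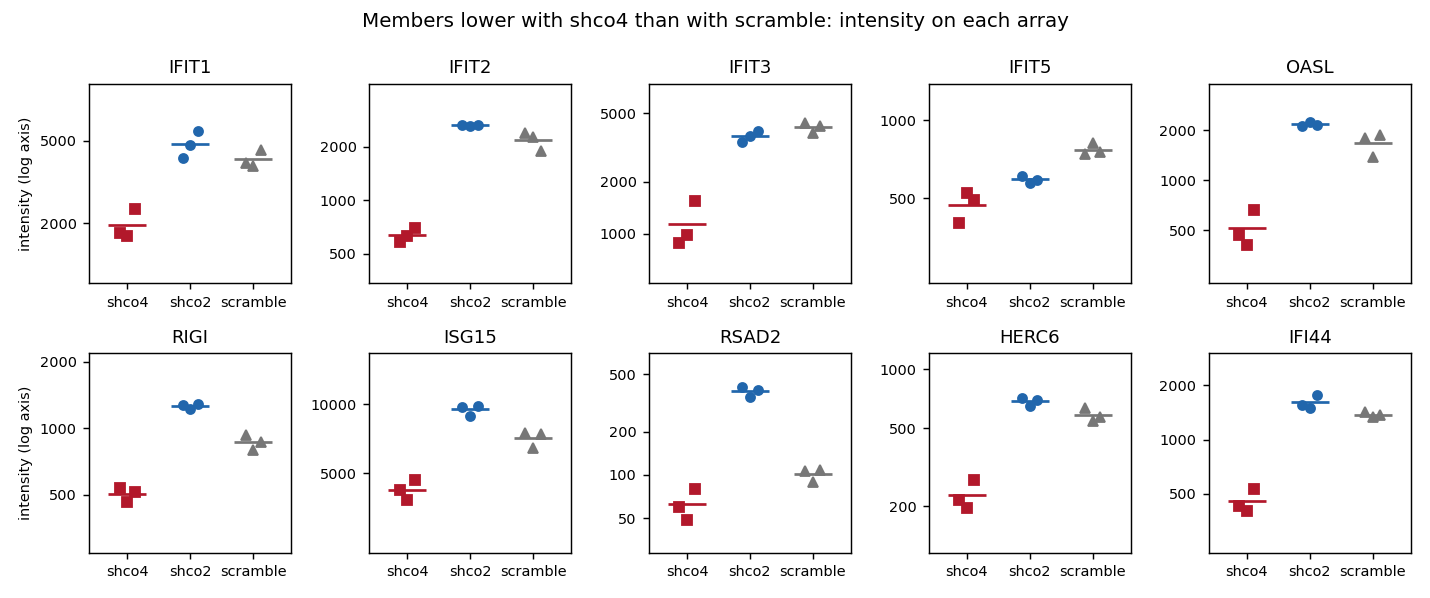
Intensity on each array (log axis, one panel a gene) for 10 members called lower with shco4 than with scramble. Squares are shco4, circles shco2 and triangles scramble, and a line marks each group's mean intensity. In all 10 panels the 3 shco4 points lie below all 6 others, and in RSAD2 the shco2 points (346 to 410.1) lie above all others.

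The OAS enzymes make 2′-5′ linked oligoadenylates that activate RNase L, and OASL is a relative that lacks this activity and enhances RIG-I signalling. Of the 4, OASL fell with shco4 and no other passed the test against scramble with either hairpin. OASL had 472, 410.1 and 660.3 in shco4, 2121, 2248 and 2145 in shco2 and 1794, 1392 and 1872 in scramble. The shco4 arrays were all low and the shco2 arrays all above the scramble arrays. The difference was -1.73 ± 0.19 with shco4 (3.32-fold lower, adjusted p = 0.00227) and 0.38 ± 0.19 with shco2 (adjusted p = 0.25). Its second probe set was also lower with shco4 (-1.44, adjusted p = 0.000881) and was called higher with shco2 (0.48, adjusted p = 0.0316). OAS3 gave -0.40 with shco4 and 0.37 with shco2, neither called, and it was lower in shco4 than in shco2 (-0.77 ± 0.21, adjusted p = 0.0309, lost when any of 5 arrays was dropped, at an adjusted p of up to 0.0945 for shco2 replicate 3). OAS1 and OAS2 differed from scramble by 0.02 and -0.07 with shco4, and by 0.71 and -0.34 with shco2, without a call. One further OAS1 probe set was called lower with shco4 (-0.74, adjusted p = 0.0286).

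Among the sensors of foreign nucleic acid and the enzymes that act on double-stranded RNA, RIGI and DDX60 fell with shco4 and ADAR fell with shco2, while RIGI rose with shco2. RIGI, the sensor of RNA with a 5′ triphosphate, had 533, 462 and 514 in shco4, 1268, 1216 and 1284 in shco2 and 932, 792 and 866 in scramble. The 3 groups stood apart, with shco4 lowest and shco2 highest. The difference was -0.78 ± 0.074 with shco4 (adjusted p = 0.00135) and 0.54 ± 0.074 with shco2 (adjusted p = 0.00387). DDX60, a helicase reported to promote RIG-I signalling, had 406, 324 and 623 in shco4, 554, 701 and 947 in shco2 and 1091, 1334 and 1483 in scramble. The shco4 and shco2 arrays overlapped, and both groups lay below scramble. DDX60 was lower with shco4 (-1.57 ± 0.30, adjusted p = 0.0139) and missed the threshold with shco2 (-0.85 ± 0.30, adjusted p = 0.0982).

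ADAR, which edits adenosines in double-stranded RNA, had 2691, 2266 and 2464 in shco4, 1743, 1806 and 1706 in shco2 and 2130.1, 2171 and 2029 in scramble. Its shco2 arrays were lowest and its shco4 arrays highest, with no overlap between groups. It differed by -0.27 ± 0.064 with shco2 (adjusted p = 0.0285, lost when any of 6 arrays was dropped, at an adjusted p of up to 0.0903 for shco2 replicate 3), by 0.23 ± 0.064 with shco4 (adjusted p = 0.0539), and by 0.49 ± 0.064 between shco4 and shco2 (adjusted p = 0.00165). The MDA5 gene IFIH1 was not called with either hairpin (-0.16 with shco4, -0.26 with shco2). The DNA sensor gene IFI16 differed by -0.51 with shco4 (adjusted p = 0.136), and its adjusted p was 0.0192 once the replicate numbers were blocked in the fit. For EIF2AK2, which encodes the translation-blocking kinase PKR, the brightest probe set was not called in any comparison (-0.06 with shco4, 0.08 with shco2).

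The ISG15 system attaches a ubiquitin-like protein to other proteins. ISG15, HERC5 and HERC6 fell with shco4, and ISG15 and USP18 rose with shco2. ISG15, the modifier itself, had 4215, 3795 and 4682 in shco4, 9761, 8935 and 9855 in shco2 and 7523, 6451 and 7385 in scramble. As for RIGI, the 3 groups stood apart, with shco4 lowest and shco2 highest. The difference was -0.75 ± 0.095 with shco4 (adjusted p = 0.00337) and 0.42 ± 0.095 with shco2 (adjusted p = 0.0234, lost when any of 4 arrays was dropped, at an adjusted p of up to 0.0776 for shco2 replicate 3). HERC5, the main ligase for ISG15 in human cells, had 901, 863 and 1272 in shco4, 1823, 2283 and 2437 in shco2 and 2221, 1863 and 2479 in scramble. Only the shco4 arrays stood apart, and HERC5 fell by 1.12 ± 0.19 with shco4 (adjusted p = 0.0102). HERC6, a related protein that serves as the ISG15 ligase in mice, had 216, 196 and 273 in shco4, 710.2, 647 and 698 in shco2 and 631, 545 and 571 in scramble. It fell by 1.36 ± 0.13 with shco4 (adjusted p = 0.00125) and with shco2 gave 0.24 (adjusted p = 0.276).

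USP18 removes ISG15 from proteins and also restrains signalling at IFNAR2. It had 73.1, 53.0 and 65.4 in shco4, 242, 157 and 176 in shco2 and 111, 90.9 and 97.3 in scramble. Every shco2 array was above, and every shco4 array below, the scramble arrays. USP18 rose with shco2 (0.92 ± 0.19, adjusted p = 0.0176), a call lost when dropping scramble replicate 2, at an adjusted p of 0.0605, or scramble replicate 3, at an adjusted p of 0.0573. With shco4 it differed by -0.65 ± 0.19 (adjusted p = 0.0618, and 0.00967 with replicate numbers blocked). UBE2L6, the conjugating enzyme, was not called with shco4 (0.47, adjusted p = 0.0686, 0.0355 with the block) or shco2 (-0.26), and it was higher in shco4 than in shco2 by 0.73 ± 0.14 (adjusted p = 0.0091). All the other members of the ISG15 system were lower in shco4 than in shco2, with log2 differences of -1.12 for HERC5 to -1.60 for HERC6.

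Of the 12 other effectors, 5 fell and 3 rose with shco4, and 2 fell and 2 rose with shco2. All genes gave 11.6% lower and 10.7% higher with shco4, and 11% and 13.3% with shco2. The brighter genes gave 17.1% and 15.5% with shco4, and 16.1% and 19.7% with shco2. With 12 genes, the shco2 counts are not read as a result about the effectors. RSAD2, which encodes viperin, an enzyme that makes a chain-terminating nucleotide, had 59.4, 48.9 and 80.2 in shco4, 410.1, 346 and 387 in shco2 and 106, 89.7 and 109 in scramble. The shco2 arrays were several-fold above all others and the shco4 arrays were lowest. RSAD2 was 3.77-fold higher with shco2 than with scramble (1.91 ± 0.18, adjusted p = 0.00124), the largest rise of any member with that hairpin. It was lower with shco4 (-0.72 ± 0.18, adjusted p = 0.0407), a call lost when any of 8 arrays was dropped, at an adjusted p of up to 0.114 for scramble replicate 1. Between the hairpins it was 6.18-fold lower in shco4 than in shco2 (-2.63 ± 0.18, adjusted p = 0.000185), the largest difference of any member.

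IFI44, a cytoplasmic protein with antiviral and antiproliferative activity, had 430.1, 399 and 531 in shco4, 1557, 1502 and 1774 in shco2 and 1417, 1341 and 1366 in scramble. The shco4 arrays were low without overlap, and IFI44 fell by 1.61 ± 0.11 with shco4 (adjusted p = 0.000575) and gave 0.23 with shco2 (adjusted p = 0.246). ISG20, a 3′ to 5′ exonuclease, fell by 1.08 ± 0.11 with shco4 (adjusted p = 0.00146) and gave 0.31 with shco2 (adjusted p = 0.0938). SAMD9, an inhibitor of poxvirus replication, fell by 0.65 ± 0.11 with shco4 (adjusted p = 0.0104) and gave -0.34 with shco2 (adjusted p = 0.0838). Further probe sets of IFI44 and of ISG20 had the same call with shco4. PARP12, an ADP-ribosyltransferase that inhibits translation, had 454, 453 and 544 in shco4, 572, 593 and 558 in shco2 and 1005, 993 and 943 in scramble. Both hairpin lines lay well below scramble. PARP12 fell by 1.02 ± 0.075 with shco4 (adjusted p = 0.000626) and by 0.77 ± 0.075 with shco2 (adjusted p = 0.00126), and was slightly lower in shco4 than in shco2 (-0.25 ± 0.075, adjusted p = 0.0435, lost when any of 8 arrays was dropped, at an adjusted p of up to 0.127 for shco2 replicate 2).

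The effectors that rose with shco4 were LGALS3BP, IFI27 and IFI6. LGALS3BP, a secreted glycoprotein that binds galectins, had 5249, 5338 and 5072 in shco4, 3622, 3751 and 3569 in shco2 and 3802, 3612 and 3558 in scramble. The shco4 arrays stood above both other groups, which overlapped. The difference was 0.51 ± 0.033 with shco4 (adjusted p = 0.000465) and it was not called with shco2 (adjusted p = 1). IFI27, a mitochondrial and nuclear membrane protein, differed by 0.71 ± 0.16 with shco4 (adjusted p = 0.026, and 0.0637 with replicate numbers blocked). IFI6, a membrane protein that inhibits flavivirus replication, differed by 0.57 ± 0.14 with shco4 (adjusted p = 0.0366) and 0.64 ± 0.14 with shco2 (adjusted p = 0.0231), and it was the single member that rose with both. The IFI27 call with shco4 was lost when any of 5 arrays was dropped, at an adjusted p of up to 0.0767 for shco4 replicate 1. The IFI6 call was lost when any of 7 arrays was dropped, at an adjusted p of up to 0.114 for scramble replicate 2 for shco4, and when any of 5 arrays was dropped, at an adjusted p of up to 0.0751 for scramble replicate 2 for shco2. XAF1, an antagonist of the apoptosis inhibitor XIAP, ranged over 166 to 195 in shco4, 41.3 to 68.3 in shco2 and 135 to 152 in scramble. It fell by 1.49 ± 0.19 with shco2 (adjusted p = 0.00286), and gave 0.31 with shco4 (adjusted p = 0.333). IFI35 was not called (-0.51 with shco4, -0.22 with shco2), nor was BST2, the tetherin that holds budding virions at the cell surface (-0.09 with shco4, 0.40 with shco2). IFI44L was not called against scramble and was lower in shco4 than in shco2 (-1.43 ± 0.41, adjusted p = 0.0373, lost when any of 6 arrays was dropped, at an adjusted p of up to 0.114 for shco2 replicate 3).

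The interferon regulatory factors bind the response element or related sites and carry the signal to the genes. With shco4, IRF1, IRF2 and IRF7 rose and none fell. With shco2, IRF1 fell and IRF3 rose. IRF1, an activator of interferon and antigen presentation genes, had 884, 907 and 838 in shco4, 461, 433 and 456 in shco2 and 770.3, 713 and 775 in scramble. The shco2 arrays were lowest and the shco4 arrays highest, with no overlap. It fell by 0.74 ± 0.046 with shco2 (1.67-fold, adjusted p = 0.000316) and rose by 0.22 ± 0.046 with shco4 (adjusted p = 0.0201, lost when dropping shco4 replicate 1, at an adjusted p of 0.0621, or shco4 replicate 2, at an adjusted p of 0.0586). IRF7, the factor that amplifies the type I interferon response, had 716, 544 and 491 in shco4, 315, 326 and 310.1 in shco2 and 292, 277 and 282 in scramble. Its shco4 arrays stood clearly above all others. IRF7 rose by 1.02 ± 0.13 with shco4 (2.03-fold, adjusted p = 0.00345) and gave 0.16 with shco2 (adjusted p = 0.494).

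IRF2, which competes with IRF1 for the same DNA sites, had 405, 502 and 468 in shco4, 174, 188 and 246 in shco2 and 203, 317 and 266 in scramble. The shco4 arrays were highest, and shco2 and scramble overlapped. IRF2 rose by 0.82 ± 0.20 with shco4 (adjusted p = 0.034), a call lost when any of 6 arrays was dropped, at an adjusted p of up to 0.0955 for shco4 replicate 2, and was higher in shco4 than in shco2 by 1.19 ± 0.20 (adjusted p = 0.00507). IRF3, the factor that RIG-I signalling activates first, had 1116, 936 and 843 in shco4, 1638, 1236 and 1374 in shco2 and 1046, 901 and 872 in scramble. Its shco2 arrays were the highest group, and shco4 overlapped scramble. IRF3 rose by 0.59 ± 0.15 with shco2 (adjusted p = 0.0333, lost when any of 5 arrays was dropped, at an adjusted p of up to 0.102 for scramble replicate 3) and was lower in shco4 than in shco2 (-0.55, adjusted p = 0.0282, lost when any of 4 arrays was dropped, at an adjusted p of up to 0.0813 for shco4 replicate 3). IRF9 was not called in any comparison (0.17 with shco4, 0.39 with shco2). Of the receptor chains, IFNAR1 had 167, 150.2 and 110.2 in shco4, 53.9, 58.0 and 45.9 in shco2 and 151, 131 and 99.4 in scramble. All 3 shco2 arrays were low, and IFNAR1 fell by 1.26 ± 0.21 with shco2 (adjusted p = 0.0081) and gave 0.16 with shco4 (adjusted p = 0.716). IFNAR2 was not called (0.15 with shco4, 0.14 with shco2).

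**Figure D4:**
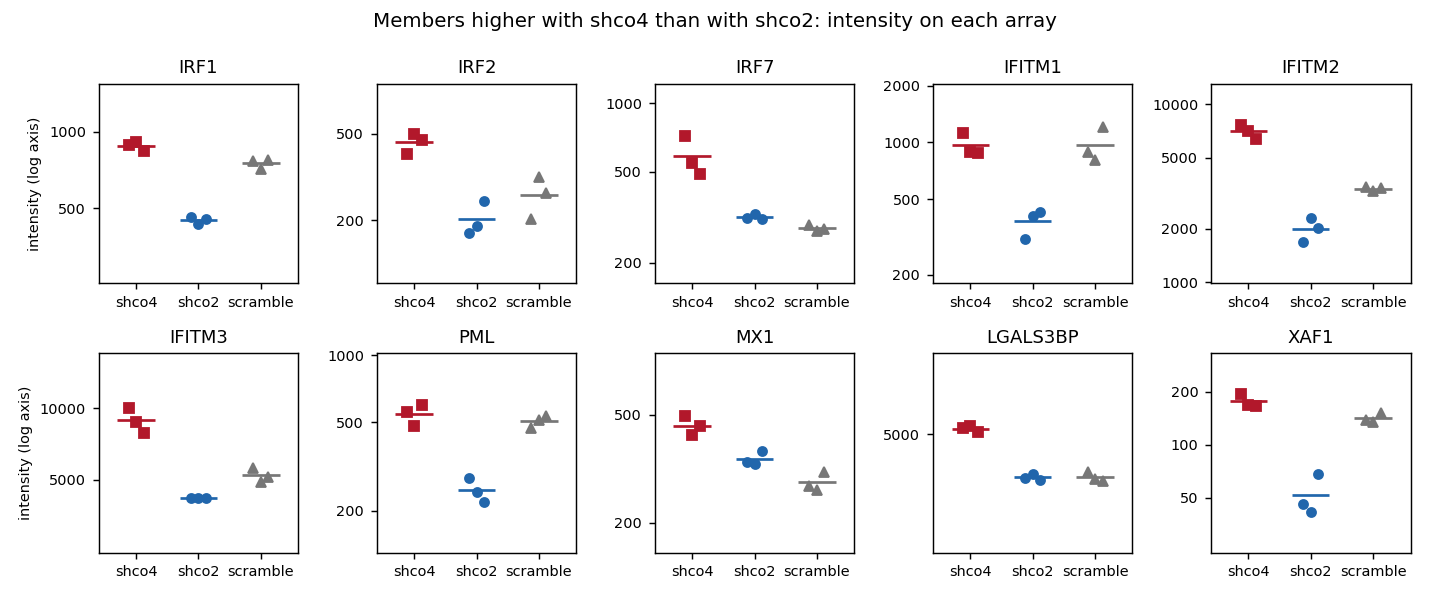
Intensity on each array (log axis, one panel a gene) for 10 members called higher with shco4 than with shco2. Squares are shco4, circles shco2 and triangles scramble, and a line marks each group's mean intensity. IRF1, IFITM1, IFITM2, PML and XAF1 have shco2 below both other groups, while in IRF7, MX1 and LGALS3BP shco4 lies above both other groups.

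The IFITM genes encode small membrane proteins that block fusion of entering viruses, and they lie beside each other on chromosome 11. All 3 were higher in shco4 than in shco2, by 1.08 to 1.83. IFITM2 had 7681, 7064 and 6402 in shco4, 1678, 2301 and 2006 in shco2 and 3442, 3232 and 3384 in scramble. The 3 groups stood apart with scramble in the middle, the reverse of the order seen for RIGI and ISG15. It rose by 1.07 ± 0.12 with shco4 (adjusted p = 0.00244) and fell by 0.76 ± 0.12 with shco2 (adjusted p = 0.0066). IFITM3 had 10017, 8713 and 7897 in shco4, 4179, 4173 and 4201 in shco2 and 5604, 4903 and 5119.5 in scramble. Its order was the same, and it rose by 0.76 ± 0.09 with shco4 (adjusted p = 0.00274) and with shco2 gave -0.31 ± 0.09 (adjusted p = 0.0536). IFITM1 had 1125, 894 and 880.1 in shco4, 307, 411 and 432 in shco2 and 890.2, 811 and 1204 in scramble. Here shco4 and scramble overlapped, and IFITM1 fell by 1.33 ± 0.20 with shco2 (adjusted p = 0.00552) and gave 0.01 with shco4 (adjusted p = 1). The 3 genes are close in sequence and their probes may share signal, so they may not be 3 separate readings.

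Of the interferon-induced GTPases, MX1 rose with shco4 and GBP2 fell with shco2. MX1, which blocks influenza virus transcription, had 496, 419 and 453 in shco4, 336, 328 and 369 in shco2 and 273, 263 and 309 in scramble. The shco4 arrays were highest and the shco2 arrays lay between, with no overlap. It rose by 0.70 ± 0.087 with shco4 (adjusted p = 0.00335) and gave 0.29 ± 0.087 with shco2 (adjusted p = 0.0619). GBP2, a guanylate-binding protein that acts on intracellular bacteria and parasites, had 694, 415 and 382 in shco4, 102, 166 and 168 in shco2 and 324, 309 and 424 in scramble. Its shco2 arrays were all low, and it fell by 1.30 ± 0.30 with shco2 (adjusted p = 0.0264, lost when any of 6 arrays was dropped, at an adjusted p of up to 0.0838 for scramble replicate 3) and gave 0.46 with shco4 (adjusted p = 0.394). MX2 and GBP1 were not called in any comparison, at -0.07 and -0.24 with shco4 and -0.02 and -0.77 with shco2. A second GBP1 probe set was called lower with shco2 (-0.86, adjusted p = 0.0415).

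Of the 6 TRIM and nuclear body genes, SP100 and TRIM21 rose with shco4, and PML and TRIM14 fell with shco2. These are calls of the brightest probe sets, and 6 further probe sets of PML or TRIM14 were not called with shco2. PML, the scaffold of nuclear bodies, had 557, 481 and 601 in shco4, 279, 242 and 219 in shco2 and 471, 512 and 531 in scramble. The shco2 arrays were low by themselves, and PML fell by 1.04 ± 0.12 with shco2 (adjusted p = 0.00194) and gave 0.11 with shco4 (adjusted p = 0.615). TRIM14, an adaptor at mitochondria in RIG-I signalling, had 719, 581 and 707 in shco4, 392, 335 and 403 in shco2 and 532, 536 and 520.3 in scramble. It fell by 0.49 ± 0.10 with shco2 (adjusted p = 0.017, lost when dropping scramble replicate 1, at an adjusted p of 0.0536, or scramble replicate 2, at an adjusted p of 0.0552), and with shco4 it gave 0.33 ± 0.10 (adjusted p = 0.0705, and 0.0488 with replicate numbers blocked). SP100, a further nuclear body protein, had 769, 805 and 848 in shco4, 703, 686 and 718 in shco2 and 575, 704 and 656 in scramble. Its shco4 arrays were highest, and shco2 overlapped scramble. SP100 rose by 0.33 ± 0.076 with shco4 (adjusted p = 0.0279, lost when any of 4 arrays was dropped, at an adjusted p of up to 0.0779 for shco4 replicate 3).

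TRIM21, a cytosolic antibody receptor, had 404, 548 and 486 in shco4, 289, 335 and 301 in shco2 and 293, 383 and 310.3 in scramble. It rose by 0.54 ± 0.14 with shco4 (adjusted p = 0.0451, lost when any of 7 arrays was dropped, at an adjusted p of up to 0.128 for scramble replicate 1) and was higher in shco4 than in shco2 by 0.63 ± 0.14 (adjusted p = 0.017, lost when dropping shco2 replicate 1, at an adjusted p of 0.0584, or shco2 replicate 3, at an adjusted p of 0.0555, or shco4 replicate 3, at an adjusted p of 0.0516). TRIM22, a factor that restricts retroviruses, differed by 1.02 ± 0.31 with shco4 (adjusted p = 0.0681) and -0.91 ± 0.31 with shco2 (adjusted p = 0.092), and was higher in shco4 than in shco2 by 1.93 ± 0.31 (adjusted p = 0.00403). SP110, a nuclear body protein, was not called in any comparison (-0.27 with shco4, -0.34 with shco2). Counted over all roles, 14 of the 15 lower calls with shco4 held with each array left out in turn, RSAD2 being the exception, against 5 of the 11 higher calls (IRF7, MX1, IFITM2, IFITM3 and LGALS3BP). With shco2, 7 of 11 lower calls and 2 of 6 higher calls (RIGI and RSAD2) held in the same way. The share of all genes' calls that held in this way is not given here, so these counts describe the members without a background.

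Other genes of the interferon pathway (ligands, receptors, kinases, adaptors and inhibitors) were listed as 39 genes, of which 33 were measured. With shco4, 3 fell and 6 rose, and with shco2, 6 fell and 5 rose, out of 33. All genes gave 11.6% lower and 10.7% higher with shco4, and 11% lower and 13.3% higher with shco2. The brighter genes gave 17.1% and 15.5% with shco4 and 16.1% and 19.7% with shco2. As shares of the 33, lower calls with shco4 lay below both backgrounds and higher calls with shco2 lay between them. Higher calls with shco4 and lower calls with shco2 lay somewhat above both. JAK1, the kinase shared by the interferon receptors, had 578, 615 and 687 in shco4, 599, 635 and 657 in shco2 and 1988, 1944 and 2027 in scramble. Both hairpin lines were far below scramble and overlapped each other. JAK1 fell by 1.67 ± 0.067 with shco4 (adjusted p = 0.00019) and by 1.66 ± 0.067 with shco2 (adjusted p = 0.000132), a 3.18-fold and 3.15-fold lower level, while shco4 minus shco2 was -0.01 ± 0.067. JAK1 was read from 1 probe set and both values share the scramble arrays, so lower JAK1 in both Coco lines and higher JAK1 in the scramble line cannot be told apart. SOCS1, which inhibits JAK kinases, had 49.3, 52.2 and 60.7 in shco4, 50.5, 53.0 and 63.9 in shco2 and 116, 109 and 80.7 in scramble. It also fell with both hairpins, by 0.91 ± 0.17 with shco4 (adjusted p = 0.0128) and 0.86 ± 0.17 with shco2 (adjusted p = 0.0134).

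IFNGR1, the ligand-binding chain of the interferon gamma receptor, had 1600.3, 1410.4 and 1327 in shco4, 918, 1054 and 910.2 in shco2 and 699.6, 737 and 723 in scramble. The groups did not overlap, and IFNGR1 was 2.00-fold higher with shco4 (adjusted p = 0.000945) and 1.33-fold higher with shco2 (adjusted p = 0.0162, lost when dropping scramble replicate 1, at an adjusted p of 0.0557, or scramble replicate 3, at an adjusted p of 0.0502). MAVS, the mitochondrial adaptor below RIG-I, had 302, 364 and 342 in shco4, 406, 389 and 398 in shco2 and 504, 464 and 518 in scramble. It fell by 0.56 ± 0.074 with shco4 (adjusted p = 0.00395) and by 0.32 ± 0.074 with shco2 (adjusted p = 0.0269, lost under median centring and when any of 5 arrays was dropped, at an adjusted p of up to 0.0853 for scramble replicate 3). MYD88, the adaptor of Toll-like receptors, had 1576, 1465 and 1486 in shco4, 843, 887 and 865 in shco2 and 1474, 1550.2 and 1599 in scramble. Only shco2 stood apart, and MYD88 fell by 0.83 ± 0.041 with shco2 (adjusted p = 0.00018). PTPN11, which encodes the phosphatase SHP2, had 2149, 2532 and 2658 in shco4, 3141, 3771 and 3525 in shco2 and 2057, 2359 and 2472 in scramble. It rose by 0.60 ± 0.11 with shco2 (adjusted p = 0.0123). Its shco2 arrays stood above all others. PIAS4, an inhibitor of STAT signalling, had 398, 324 and 377 in shco4, 209.7, 193 and 227 in shco2 and 249.6, 215 and 247 in scramble. It rose by 0.63 ± 0.10 with shco4 (adjusted p = 0.00826), and all its shco4 arrays were above the others. STAT3, a mediator of cytokine signals, had 3220.1, 2763 and 2848 in shco4, 1633, 1944 and 1748 in shco2 and 1840.3, 2199 and 1909 in scramble, and it rose by 0.57 ± 0.10 with shco4 (adjusted p = 0.0104). The interferon genes IFNB1, IFNA1, IFNA2 and IFNG were below 16 on all arrays except for IFNB1 at 18.1 on 1 shco4 array, as seen after the values were known, so a difference in them was not measurable on these arrays.

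**Figure D5:**
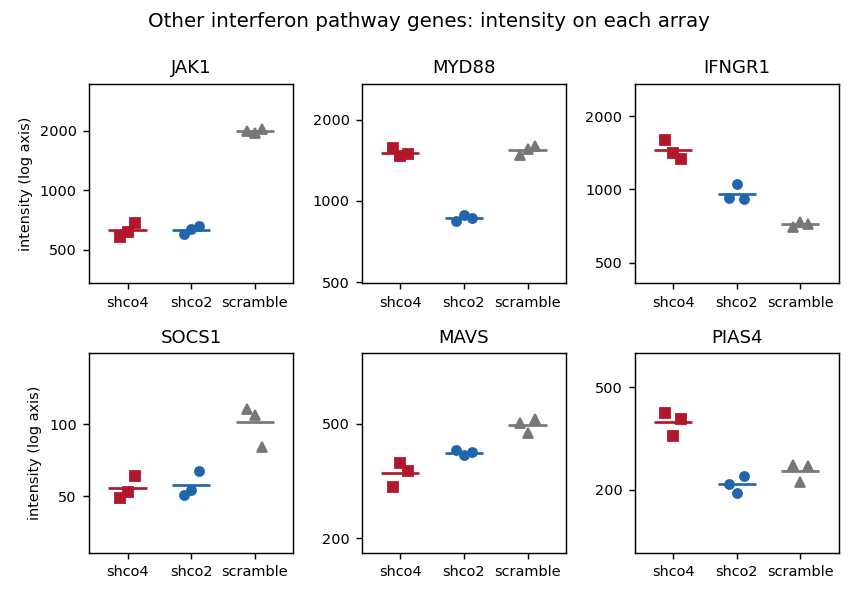
Intensity on each array (log axis, one panel a gene) for 6 genes of the interferon pathway outside the set of 51. Squares are shco4, circles shco2 and triangles scramble, and a line marks each group's mean intensity. JAK1 and SOCS1 are lower in both hairpin lines than in scramble, MYD88 is lower with shco2 alone, and IFNGR1 is highest with shco4.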

How the data were processed

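Total RNA from 9 samples (3 per line, 200 ng each) was labelled with a 3′ in vitro transcription kit and hybridised to Affymetrix arrays, per the labels' protocols. The deposited value table holds 1 linear intensity per probe set and array. How probes were summarised is not given in the sources used here. The equal trimmed means (2% removed at each end) show that arrays had been scaled to a common level. A probe set summarises 3′ probes, so isoforms and close relatives can share signal.

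Of 22277 probe sets, 62 controls were left out. Values under 16 were set to 16, log2 was taken, and limma 3.58.1 (R 4.3.3) was fitted to all 9 arrays with a mean per group. Genes were named from the platform annotation for 19064 probe sets with 1 symbol, while 1043 with several and 2108 without a symbol stayed unnamed, and the probe set with the highest mean stood for a gene. The script recovered seeded changes in a test on simulated data, where they were placed in brighter probe sets and the noise was independent between arrays. Its power for the small differences reported here is not given. Values on all arrays are printed for members called with either hairpin against scramble, at most 4 per role by smallest p, and for at most 4 called pathway genes per comparison. Members, lists and the role order were chosen with earlier results of these data known. Promoter windows are from RefSeq (GRCh38.p14).

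Alternatives were a floor of 64, a filter on dim probe sets, leaving out probe sets at the floor on every array, quantile normalisation, median centring, a trended robust variance, the mean of all probe sets of a gene, a fit of only the 2 groups compared, leaving out each array, and the replicate number as a block. Same-number pairing was checked. Deviations of same-numbered arrays correlated at 0.133 to 0.235 between shco4 and scramble, at 0.0571 to 0.29 between shco2 and scramble and at 0.0576 to 0.213 between shco4 and shco2. All of these were positive, while arrays with different numbers correlated at -0.274 to 0.044 over the same pairs of groups. The main fit had no replicate term, so its p-values ignore any pairing by number, which entered only the block alternative. The labels give a shared number but no shared culture or day. The number of arrays limits the precision of every value.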

Additional observations from a re-analysis of the deposited data

Results flagged for a closer look

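Members called lower with one Coco hairpin and higher with the other, relative to the same scramble arrays, were picked out for these opposite calls. The shco4 minus shco2 difference follows from that choice, so it is given as a description with no test. RSAD2 was lower in shco4 than in shco2 by a log2 difference of -2.63, RIGI by -1.32 and ISG15 by -1.17. IFITM2 was higher in shco4 than in shco2 by 1.83, and IRF1 by 0.96. All 3 shco4 arrays lay on one side of scramble and all 3 shco2 arrays on the other for each of these genes, which the choice by opposite calls makes likely. Over all genes, every shco4 array lay above every scramble array for 19.9% and below for 18.7%. For shco2 these shares were 23.9% and 18.4%. The same opposite calls were made for 281 of all 11963 genes lower with shco4 and higher with shco2 (2.35%, against 5.88% of members), and for 216 genes higher with shco4 and lower with shco2 (1.81%, against 3.92% of members). The hairpins target 1 gene, and the remaining level of its transcript in either line was not analysed here.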

How the results depend on the processing

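Over the members taken singly, 2540 results under the alternatives kept their direction and side of the threshold, 142 lost the call, 69 gained one and 0 reversed. The 2540 include results that were not called in the main fit and stayed so. Of the calls themselves, 19 of 26 with shco4, 9 of 17 with shco2 and 29 of 35 between the hairpins held with each array left out in turn. Leaving out each array in turn gave 14 to 15 members lower with shco4 (15 with all arrays), 7 to 9 higher with shco4 (11), 7 to 12 lower with shco2 (11) and 2 to 6 higher with shco2 (6). The 7 lower with shco2 came without scramble replicate 1 or 2. The higher count with shco2 was 2 without scramble replicate 2 and 3 without shco2 replicate 1 or 3, and the higher count with shco4 was 7 without shco4 replicate 2 or scramble replicate 1 or 3. A fit of only the 2 groups compared gave 5 members higher with shco4, where IRF1, IRF2, TRIM21, SP100, IFI6 and IFI27 lost the call, as did the lower call of RSAD2. Between the hairpins, 12 to 16 were lower (17) and 17 to 19 higher (18). Over all genes, 791 were higher with shco4 without scramble replicate 2, against 1279. With the replicate block, 17 members were lower and 12 higher with shco4, 10 lower and 7 higher with shco2, and 16 lower and 18 higher in shco4 than in shco2, and the shco2 calls of IFIT5, ADAR and GBP2 were among those lost. The block also ended the shco2 call of MAVS (adjusted p = 0.0602). Median centring ended the shco2 calls of IFIT5, ADAR and MAVS. A floor of 64 ended the shco4 call of TRIM21 and the IFI44L difference between hairpins, and leaving out dim probe sets, or those at the floor, ended the shco4 call of IRF1. The lower values of IFIT5 and PARP12 in shco4 than in shco2 were lost under most alternatives. Of the other pathway genes, 3 instead of 6 were lower with shco2 without shco2 replicate 1 or 3 or scramble replicate 1 or 3, and 2 instead of 5 were higher without scramble replicate 1, 2 or 3 in turn. The causes of these shifts were not tested. Low signal limits IFI44L and the interferon genes. With 1 line per hairpin, differences between lines and between hairpins cannot be told apart.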

Other observations

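Further probe sets of the members, read after their values were seen, gave calls that the brightest probe set did not. For EIF2AK2, the gene of the kinase PKR, one probe set was lower with shco4 (-0.47, adjusted p = 0.0152) and higher with shco2 (0.60, adjusted p = 0.00566), where the brightest gave -0.06 and 0.08. For IFI16, the DNA sensor gene, both further probe sets were lower with shco4, by 0.50 (adjusted p = 0.0125) and 0.57 (adjusted p = 0.0459). For PML, 2 of the 7 further probe sets were higher with shco4, by 0.93 (adjusted p = 0.00841) and 0.87 (adjusted p = 0.0429). For SP110, 1 further probe set was higher with shco4 (0.69, adjusted p = 0.0421). For SP100, 2 further probe sets, at lower intensities, were higher in shco4 than in shco2 (1.16, adjusted p = 0.00347, and 0.77, adjusted p = 0.0147). Over the 29 further probe sets, 19 had the same call as the brightest with shco4 and 20 with shco2, and 0 had the opposite call. Calls of the brightest probe set were also missed. With shco4, 3 further probe sets were not called where the brightest was, and with shco2, 6 were not, all of them of PML or TRIM14.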
